A study of Mus musculus with 12 samples.

Results

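The genes of the AP-1 and Batf family examined here were Fos, Fosb, Fosl2, Jun, Junb, Jund, Batf, Batf3 and Atf3. Their chromatin was read in 70 accessible regions (peaks) of a table of 68689 peaks, each 501 bp wide on mm10. A peak was taken for a gene when that gene had the protein-coding RefSeq span nearest to the peak's midpoint, within 50000 bp, whatever the peak's count. Fos had 22 such peaks, Fosb 13, Atf3 10, Batf 8, Jun 6, Batf3 5, Junb 4 and Fosl2 2. Jund had 0 peaks under this rule, so no level of Jund is given. The data were Omni-ATAC-seq libraries, in which the Tn5 transposase cuts and tags open DNA, from germinal center B cells sorted from the spleen of C57BL/6 mice of 8 to 10 weeks. The mice were Pbrm1+/+ (called WT) or Pbrm1-/- (called HOMO), and Pbrm1 encodes a subunit of the PBAF chromatin remodeler. From each genotype 2 populations, labelled CB and CC without further explanation, gave 3 libraries each, 12 libraries in 4 groups. The labels do not say whether libraries of a group came from separate mice, so p-values measure the spread between these libraries, which may be technical. Count columns carry the prefix Pbrm1AID, whose meaning the sources used here do not give, nor do they say how the knockout allele was made or in which cells it acts.

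AP-1 is a family of dimers of basic leucine zipper proteins. Fos proteins pair with Jun proteins, and both bind a short palindrome in DNA. Many of these genes are immediate early genes, which signalling through MAP kinases and the serum response factor SRF switches on within minutes in lymphocytes. Batf and Batf3 lack a transactivation domain, pair with Jun proteins and bind together with IRF4 or IRF8. Batf is needed for antibody class switching in B cells, and Batf3 is best known for its role in a subset of dendritic cells. Atf3 is a stress-induced member that also pairs with Jun proteins.

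The upstream sequences of Fos, Jun and Batf3 are shown because a peak within Fos and the peaks of Batf3 carry the genotype results, and because the peak on the Jun start was the highest of the family's peaks that cover a start site. Each is the 250 bases before the annotated start in RefSeq (GRCm38.p6, the assembly of mm10), written 5′ to 3′ on the gene's strand. Capitals mark, in Fos, TATAAA and a GC box (GGGCGG, here on the other strand), in Jun a match to TGANNTCA, and in Batf3 each GGGCGG.
Fos, chr12:85473640-85473889, plus strand: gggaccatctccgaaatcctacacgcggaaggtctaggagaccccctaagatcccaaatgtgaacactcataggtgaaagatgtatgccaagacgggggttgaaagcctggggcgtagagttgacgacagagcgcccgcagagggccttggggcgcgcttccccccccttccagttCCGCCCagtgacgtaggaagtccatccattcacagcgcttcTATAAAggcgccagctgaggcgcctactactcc
Jun, chr4:95052223-95052472, minus strand: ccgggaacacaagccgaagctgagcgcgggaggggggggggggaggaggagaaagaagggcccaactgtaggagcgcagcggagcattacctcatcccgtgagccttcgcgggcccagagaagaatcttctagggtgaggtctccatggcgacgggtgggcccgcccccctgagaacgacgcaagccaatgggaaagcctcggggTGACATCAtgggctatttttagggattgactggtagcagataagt
Batf3, chr1:191098164-191098413, plus strand: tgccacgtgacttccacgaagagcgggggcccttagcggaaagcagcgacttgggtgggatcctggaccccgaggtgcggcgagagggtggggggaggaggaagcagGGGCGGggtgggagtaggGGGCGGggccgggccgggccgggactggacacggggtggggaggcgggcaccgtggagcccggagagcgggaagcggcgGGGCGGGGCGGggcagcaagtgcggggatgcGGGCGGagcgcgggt
The Fos window has its TATAAA 33 bases before the start, and 12.4% of 32851 such windows of the RefSeq table hold these letters on either strand. The Jun window holds TGACATCA 45 bases before the start, a match to TGANNTCA, which 11.9% of the windows hold and which was also present in Jund. The Batf3 window holds 5 GGGCGG matches, at 143, 125, 46, 41 and 15 bases before the start, those at 46 and 41 sharing a base. GGGCGG stood in 7 of the 9 family windows and in 32.7% of all windows. CCAAT stood in 2 of the 9, those of Jun and Junb, and in 33.8% of all. The letters TGANTCA (6.75% of all windows) and the CArG box (1.47%) were in 0 of the 9. Bases more than 250 before the start were not searched, so these genes may hold such sites farther upstream. Both strands were searched, and a match describes the letters alone. The Jun and Batf3 windows lie wholly under a peak (250 of 250 bases each), and 164 bases of the Fos window do.

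Libraries held 6431354 to 45590454 reads in peaks, and the library numbered 3 was the deepest of every group, at 2.03 to 2.33 times the mean of its partners. Values below are CPM, read counts scaled by each library's total in peaks and its TMM factor, and since all peaks have the same width they can be set side by side between genes. Counts of replicate libraries differed by more than counting error, with a chi-square per degree of freedom of 2.28 to 7.66. At Pbrm1 itself the gene-end peak read 24.5 to 39.5 CPM over the 12 libraries, with log2 fold changes of HOMO against WT of -0.04 in CB and -0.09 in CC. The labels do not say what was deleted from Pbrm1, so this peak does not check the genotypes. At a peak of Xist, WT CB library 2 read 0.458 CPM and WT CC library 2 read 0.782 CPM, against 4.74 to 17.2 CPM in the other 10 libraries. At another Xist peak the other 10 libraries read 4.88 to 9.39 CPM, and these 2 read 3.89 and 5.06 CPM. Results were therefore also computed without both of those libraries. Of the marker genes, 5 of 5 of B cells and 5 of 5 of germinal center B cells had a peak, as against 3 of 6 of T cells, 4 of 5 of myeloid cells, 2 of 4 of natural killer cells and 2 of 5 of erythroid cells. Itgam, Csf1r and Adgre1 had no gene-end peak and Lyz2 no peak. The other myeloid marker, Cd14, had a gene-end peak with group means of 1.46 to 4.34 CPM. A gene-end peak was also present at 1 T cell marker (Cd3d, group means 19.3 to 23.0 CPM), 2 erythroid markers and 0 natural killer cell markers.

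The family's gene-end peaks were open to very different degrees. A gene-end peak has its midpoint no more than 1 kb from the start or end of a gene span, and the highest one of each gene ran from 66.7 CPM at Junb to 6.21 CPM at Batf3, as means over the 12 libraries. Jun (61.2), Fos (46.5), Fosb (27.8), Atf3 (17.8), Batf (14.6) and Fosl2 (13.4) lay between. Neighbours in this order were ranked the same way in 12 of 12 libraries, with 3 exceptions: Junb stood above Jun in 8, Atf3 above Batf in 10 and Batf above Fosl2 in 9. Those 3 pairs are therefore not ordered beyond their spread. The median over all gene-end peaks was 22.1 CPM and over all peaks 7.78 CPM. Junb lay at the 93.3 percentile of gene-end peaks, Jun at the 91.2, Fos at the 81.3, Batf at the 35.8 and Batf3 at the 16.3.

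**Figure D1:**
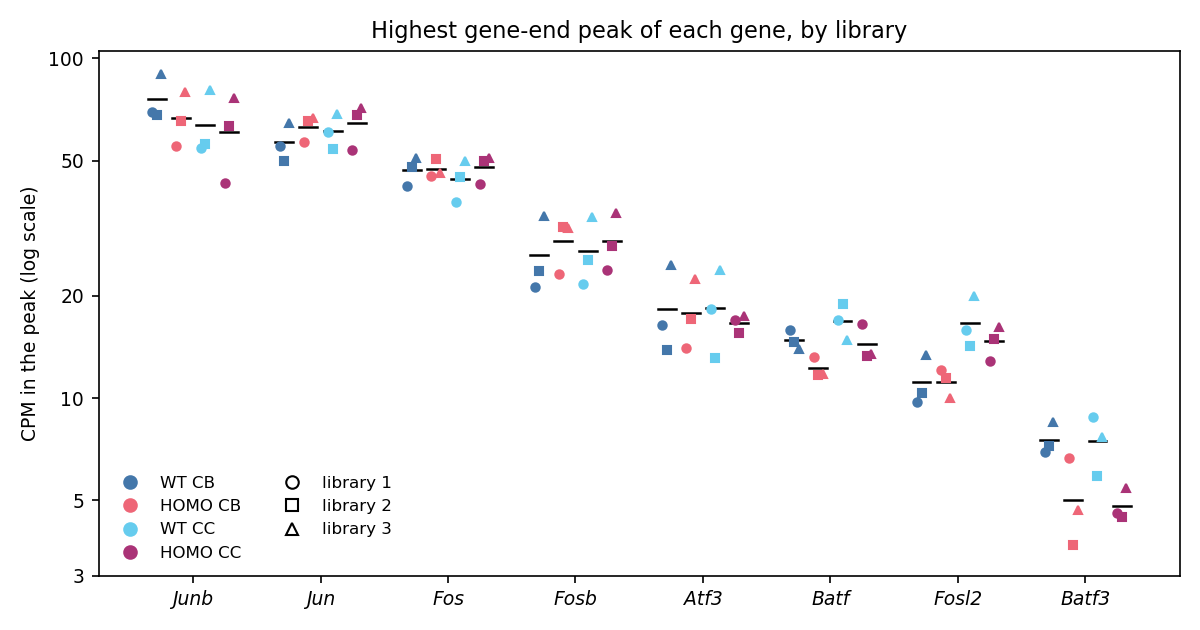
Highest gene-end peak of each gene in the 12 libraries, in CPM on a log axis, with a bar at each group mean and the marker shape giving the library number. Junb and Jun are highest and Batf3 lowest in every group, and the 4 groups of a gene lie close together beside the distance between genes.

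Junb, a Jun protein that is a weaker activator than Jun in many settings, read 69.5, 67.9 and 89.7 CPM in WT CB and 55.3, 65.4 and 79.5 CPM in HOMO CB at this peak, whose midpoint lies 1052 bp past its start. WT CC read 54.4, 55.9 and 80.5 CPM and HOMO CC 43.0, 63.0 and 76.2 CPM. The groups overlapped throughout, and library 3 was the highest of each. At the start of Jun itself, the founding Jun protein, WT CB read 55.0, 49.9 and 64.5 CPM and HOMO CB 56.6, 65.4 and 66.6 CPM. WT CC read 60.8, 53.9 and 68.6 CPM and HOMO CC 53.5, 67.9 and 71.3 CPM. These groups overlapped too. Just before Fos, the founding Fos protein, WT CB read 42.0, 47.8 and 50.9 CPM and HOMO CB 45.1, 50.5 and 45.9 CPM, which differed by 0.01 on the log2 scale (SE 0.109). WT CC read 37.8, 44.6 and 49.9 CPM and HOMO CC 42.6, 49.8 and 50.7 CPM.

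The most accessible sites of the family often lay away from the starts. The peak 1209 bp before Junb averaged 96.0 CPM, the 99.7 percentile of all peaks, with group means from 90.9 ± 11.9 (SD, n = 3) in WT CC to 98.4 ± 7.97 CPM in HOMO CB. A peak 11603 bp before Fosb averaged 82.5 CPM (99.3 percentile) and one 18770 bp before Fos 76.9 CPM (98.9 percentile). Atf3 had its highest peak 41598 bp before its start, at 66.2 CPM, which exceeded its gene-end peak. Batf had its highest 18669 bp into the gene, at 42.0 CPM. At Batf3 a peak 27484 bp past its start averaged 16.5 CPM, the highest of the gene. Fosl2 had no peak above 13.4 CPM. Assignment is by position alone, and no measurement here links a peak to the gene it regulates. Between Fos and Batf on chromosome 12 lies Jdp2, which encodes another AP-1 partner, and between Batf3 and Atf3 on chromosome 1 lies Fam71a.

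The first comparison asked whether loss of Pbrm1 changed accessibility at these genes in CB. A single peak of the 70 was called, lower in HOMO, at an adjusted p under 0.05 (edgeR quasi-likelihood test, Benjamini-Hochberg over all 68689 peaks). Of all peaks 3.85% were called lower and 0.779% higher, 4.63% in all, so 1 of 70 (1.43%) is not above that share. The median log2 fold change was -0.10 over the 70 peaks and 0.01 over all peaks. Of the 70, 48 were negative and 22 positive, and the extremes were -0.73 and 0.32. The 3 libraries of HOMO and WT did not overlap at 7 peaks on the lower side (13.2% of all peaks did so) and at 2 on the higher side (10.3%). For 38 of the 70 the whole 95% interval lay within 1.5-fold either way (54.3%, against 42.5% of all peaks), and for the others the interval reached beyond that fold. A change in the share of cells with an open site and a change per cell cannot be told apart in bulk libraries.

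The called peak lies within Fos, with its midpoint 696 bp past the start (chr12:85474336-85474836), next to the start peak that overlaps the Fos sequence shown above. WT CB read 23.4, 23.5 and 21.7 CPM there, and HOMO CB 16.4, 17.9 and 15.6 CPM. Every WT library stood above every HOMO library. The log2 fold change was -0.45 (SE 0.126, adjusted p = 0.0423, edgeR). The call was lost in 7 of the 12 fits that left out 1 library, with an adjusted p up to 0.174 (edgeR, without HOMO CB library 3), while the log2 fold change stayed between -0.52 and -0.40. In CC the same peak read 24.9, 19.7 and 22.1 CPM in WT and 15.8, 16.8 and 18.9 CPM in HOMO. These did not overlap either, and the log2 fold change of -0.36 was not called (adjusted p = 0.133, edgeR).

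Batf3 was the gene whose peaks lay lowest in HOMO as a group. In CB all 5 of its peaks had negative log2 fold changes, from -0.67 to -0.30, and at 4 of the 5 the groups did not overlap, although none of the 5 was called (lowest adjusted p = 0.0579, edgeR). At the start peak, which covers the Batf3 sequence above, WT CB read 6.93, 7.21 and 8.49 CPM and HOMO CB 6.68, 3.69 and 4.69 CPM. WT CC there read 8.77, 5.90 and 7.69 CPM and HOMO CC 4.58, 4.47 and 5.42 CPM. At the peak 12617 bp past the start WT CB read 9.37, 7.21 and 8.69 CPM and HOMO CB 5.50, 6.40 and 4.39 CPM. At both sites HOMO lay below WT in every library of its population. The peak 26084 bp past the start read 8.93, 6.53 and 6.24 CPM in WT CB and 4.45, 4.67 and 4.48 CPM in HOMO CB, again without overlap.

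**Figure D2:**
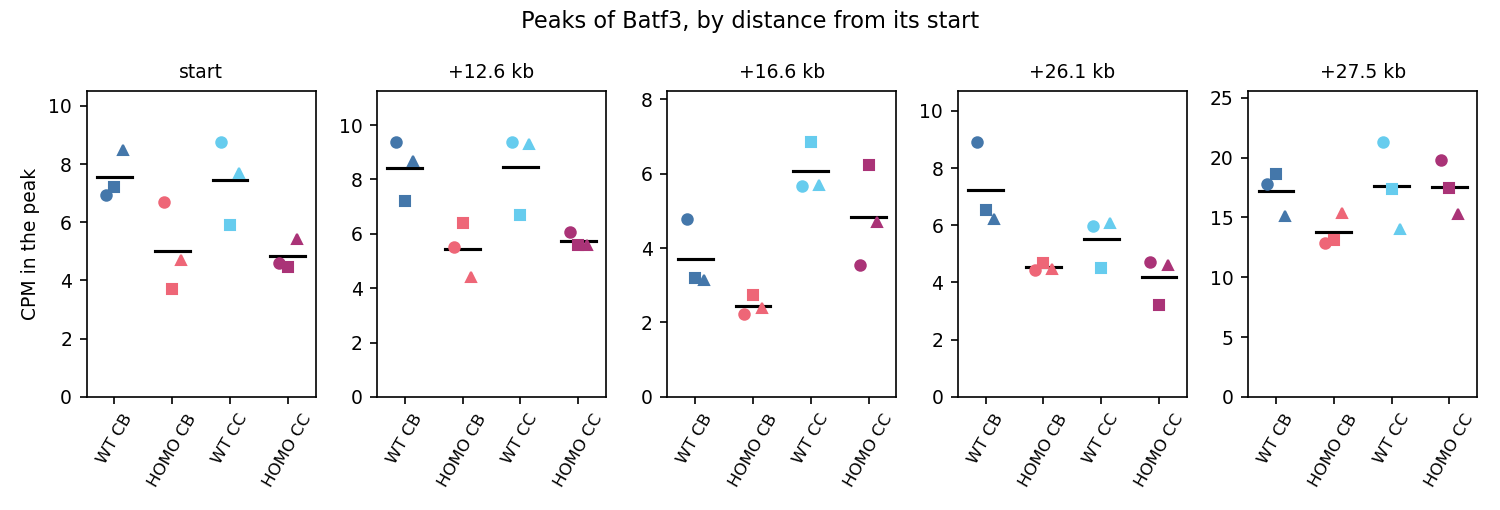
The 5 peaks of Batf3 by group, in CPM on axes that start at 0, with points for libraries, marker shape for the library number and bars for group means. HOMO CB lies below WT CB at the first 4 peaks without overlap, and at +16.6 kb the CC groups lie above their CB groups.

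Summed over its peaks, Batf3 was the single gene of the family called between genotypes. The sums were 48.6, 43.9 and 40.9 CPM in WT CB and 32.9, 32.7 and 32.6 CPM in HOMO CB, and the groups did not overlap. HOMO was lower by a log2 fold change of -0.44 (SE 0.096, adjusted p = 0.013, edgeR over 14132 genes), where 4.62% of genes were called lower and 7.0% in either direction. Without HOMO CB library 2, HOMO CB library 3 or WT CB library 1 the call was lost, with an adjusted p up to 0.079 (edgeR) and log2 fold changes of -0.44, -0.44 and -0.37. In CC the sums were 53.8, 43.8 and 44.2 CPM in WT and 41.7, 39.4 and 37.2 CPM in HOMO. These did not overlap, and the log2 fold change of -0.27 was not called (SE 0.095, adjusted p = 0.121, edgeR; 4.13% of genes were called). The other 7 genes had sums within -0.07 and 0.21 log2 in CB, with 95% intervals reaching from -0.38 to 0.52.

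Marker sums moved with genotype in CB as well. Summed over their peaks, the erythroid markers read 49.8 to 56.4 CPM in HOMO CB and 63.0 to 66.3 CPM in WT CB, without overlap. B cell markers read 1204 to 1226 against 1110 to 1138 CPM and germinal center B cell markers 812 to 890 against 745 to 789 CPM, higher in every HOMO CB library. The dark zone markers Cxcr4, Foxo1 and Gcsam read 1054 to 1091 CPM in HOMO CB and 889 to 981 CPM in WT CB, again without overlap. Myeloid markers read 114 to 117 CPM in HOMO CB and 103 to 123 CPM in WT CB and overlapped. T cell, natural killer cell, plasma cell and light zone markers overlapped too. The myeloid sum hides differences between its 15 peaks, of which 1 was called lower in HOMO in CB and 1 in CC, with 0 higher. These are 6.67% in each, against 4.63% and 2.75% of all peaks. The Cd14 gene-end peak averaged 1.46 CPM in HOMO CB and 3.31 CPM in WT CB. In CC it averaged 1.64 CPM in HOMO and 4.34 CPM in WT. The part of these differences in the Fos and Batf3 results was not tested.

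In CC the same comparison called 0 of the 70 peaks with edgeR (2.75% of all peaks were called), also 0 with DESeq2 and 0 with limma voom. Of all 68689 peaks DESeq2 called 706 higher and 2366 lower, and limma voom 1077 and 2971. Among the 70, 3 peaks had an unadjusted p under 0.05. The median log2 fold change was -0.04, against 0.02 over all peaks. Groups did not overlap at 5 peaks on the lower side (11.2% of all peaks) and at 0 on the higher side (9.81%). Batf3 again had 5 of 5 negative values, from -0.61 to -0.01. For 41 of the 70 the 95% interval lay within 1.5-fold (58.6%, against 44.0% of all peaks). In CC, too, the sums of B cell markers (1071 to 1243 against 1014 to 1051 CPM) and of germinal center B cell markers (707 to 814 against 665 to 679 CPM) lay above WT in every HOMO library. The dark zone markers overlapped, at 828 to 935 CPM in HOMO CC and 814 to 833 CPM in WT CC. The part of these differences in the CC results was not tested.

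**Figure D3:**
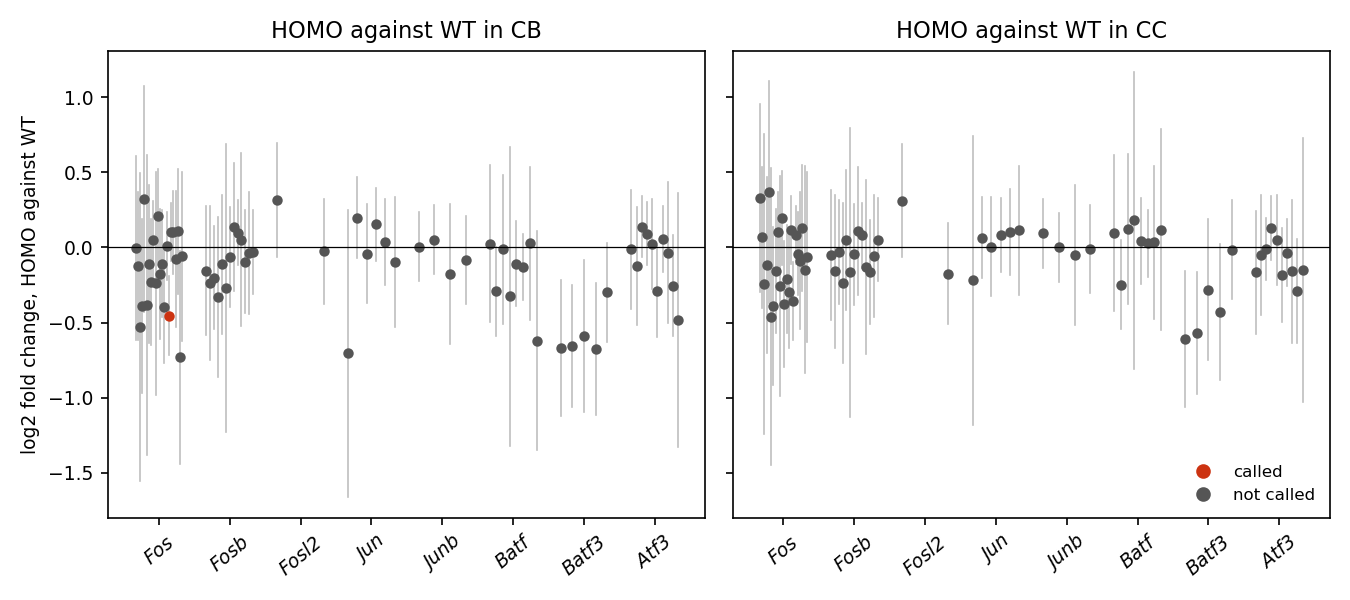
Log2 fold change of HOMO against WT at each of the 70 peaks, by gene and ordered by position, in CB (left) and CC (right), with 95% intervals and the called peak in red. Most intervals cross 0, and those of Batf3 lie mostly below it in CB.

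Whether the genotype effect differed between CC and CB was tested as an interaction. None of the 70 peaks was called with edgeR, DESeq2 or limma voom, and 0 had an unadjusted p under 0.05. Of all peaks 0.0% were called with edgeR. For the Batf3 sums the difference of effects was 0.18 log2 (95% interval -0.11 to 0.46, adjusted p = 1.0, edgeR). The difference was also taken within pairs of CB and CC libraries, an alternative chosen after the data were seen. It again called 0 of the 70 peaks (0.0% of all peaks) with edgeR, with 2 peaks at an unadjusted p under 0.05. The smaller of those p-values was at Batf, 16900 bp into the gene, at 0.52 log2 (SE 0.15, adjusted p = 0.696, edgeR). At the Fos peak that was called in CB, the effects of -0.45 and -0.36 are therefore not shown to differ between the populations.

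The second comparison set CC against CB within a genotype. It called 1 of 70 peaks in WT (1 higher in CC, where 5.43% of all peaks were called and 3.35% higher) and 2 of 70 in HOMO (1 higher and 1 lower, where 7.22% were called, 4.78% higher and 2.44% lower). Within a genotype, CB and CC libraries of the same number deviated together, so a fit that treats them as pairs is given beside it. With that replicate block 12 of 70 peaks were called in WT (6 higher, 6 lower) and 17 in HOMO (11 higher, 6 lower). With the block 22.1% of all peaks were called in WT (10.4% higher, 11.8% lower) and 22.2% in HOMO (12.5% higher, 9.68% lower), so the family's 17.1% and 24.3% lie near those shares. The median log2 fold change of the 70 was -0.03 in WT and 0.04 in HOMO, against -0.03 and -0.01 over all peaks. Groups did not overlap at 4 peaks higher in CC and 4 lower in WT (12.2% and 12.7% of all peaks), and at 8 and 6 in HOMO (13.5% and 11.5%).

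Fosl2 encodes the Fos protein Fra-2, and its peak 694 bp before the start (chr5:32135528-32136028) was called higher in CC in WT. There WT CB read 9.76, 10.3 and 13.4 CPM and WT CC 15.8, 14.2 and 19.99 CPM, without overlap. The log2 fold change was 0.57 (SE 0.165, adjusted p = 0.0443, with the block 8.22e-05, edgeR). HOMO CB read 12.1, 11.4 and 10.0 CPM and HOMO CC 12.9, 14.9 and 16.2 CPM, a log2 fold change of 0.43 that was called with the block alone (adjusted p = 0.137, with the block 0.00104, edgeR). Without the block the WT call was lost in 8 of the 12 fits that left out 1 library, up to an adjusted p of 0.208 without WT CB library 1 (edgeR), with a log2 fold change between 0.41 and 0.75.

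At Batf3 the peak 16587 bp past the start (chr1:191114751-191115251) was called higher in CC in HOMO, where CB read 2.23, 2.74 and 2.38 CPM and CC 3.55, 6.22 and 4.70 CPM. The level was 2.00-fold that of CB (log2 fold change 1.00, SE 0.238, adjusted p = 0.0121, with the block 5.31e-05, edgeR). In WT it read 4.78, 3.21 and 3.15 CPM in CB and 5.67, 6.86 and 5.70 CPM in CC, a log2 fold change of 0.70 called with the block alone (adjusted p = 0.0845, with the block 0.00528, edgeR). CC and CB did not overlap in either genotype. The HOMO call without the block was lost in 2 of 12 fits, those without HOMO CB library 3 and without HOMO CC library 2, with an adjusted p of up to 0.127 (edgeR) in the latter and a log2 fold change between 0.78 and 1.12.

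At Atf3 a peak 43413 bp before the start (chr1:191226496-191226996) was called lower in CC in HOMO, where CB read 53.2, 49.9 and 48.8 CPM and CC 35.2, 42.3 and 40.1 CPM. The groups did not overlap, and the log2 fold change was -0.36 (adjusted p = 0.0295, with the block 0.000193, edgeR). WT read 46.1, 47.5 and 44.2 CPM in CB and 43.9, 35.8 and 39.8 CPM in CC, a log2 fold change of -0.21 called with the block alone (adjusted p = 0.245, with the block 0.0376, edgeR). Without the block the HOMO call was lost in 6 of 12 fits, each leaving out a HOMO library, with an adjusted p of up to 0.0919 (edgeR). Its neighbour 41598 bp before the start, the highest Atf3 peak, was called lower in CC with the block in both genotypes.

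The WT and HOMO comparisons of CC with CB share no library. With the block, 10 peaks were called in both, 83.3% of the WT calls and 58.8% of the HOMO calls, and the direction was the same at all 10. Over all peaks 9224 were called in both, 60.6% of the WT calls and 60.4% of the HOMO calls, with all 9224 in the same direction. Those higher in CC were the Fosl2 and Batf3 peaks above, Fosb at 15917 bp before its start (0.37 and 0.42 log2 in WT and HOMO), Fos at 26787 bp (0.40 and 0.39) and 5098 bp (0.68 and 0.46) before its start, and Batf at 24066 bp past its start (0.27 and 0.28). Those lower were both Atf3 peaks, Fosb at 9485 bp before its start (-0.31 and -0.22) and Fos at 12105 bp past its start (-0.19 and -0.20). Peaks of the same gene thus had opposite signs at Fosb and at Fos. The signs of the 2 genotypes matched at 55 of the 70 peaks (78.6%) without the block, and at 76.5% of all peaks.

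**Figure D4:**
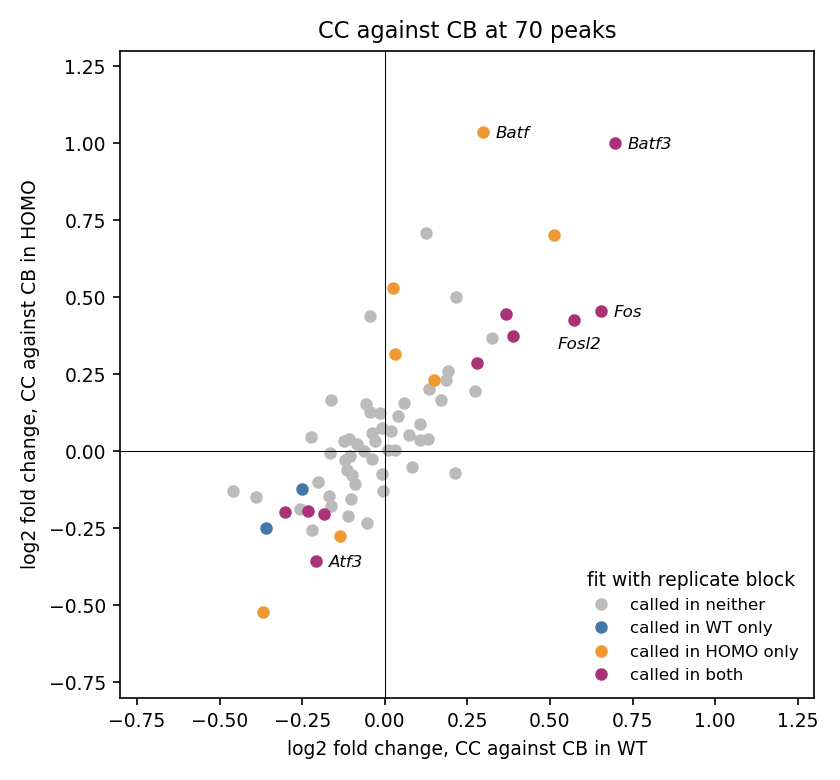
Log2 fold change of CC against CB at the 70 peaks in WT (horizontal axis) and HOMO (vertical axis), coloured by the calls of the fit with a replicate block. The peaks called in both genotypes lie in the upper right or lower left part, and 5 peaks are labelled with their gene.

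Summed over their peaks, 0 member genes were called between CC and CB without the block in WT (3.75% of genes were called) or in HOMO (4.93%) with edgeR, and DESeq2 called 0 in either. An unadjusted p under 0.05 was reached by 1 gene in WT (Fosl2) and by 3 in HOMO (Atf3, Batf3 and Fosl2). With the block, Fosl2 was higher in CC in WT (0.46 log2, adjusted p = 5.52e-05, edgeR) and in HOMO (0.36, adjusted p = 0.000658, edgeR). Atf3 was lower in WT (-0.11, adjusted p = 0.0341) and in HOMO (-0.18, adjusted p = 0.000263, edgeR). Batf (0.21) and Batf3 (0.25) were called higher in HOMO with the block, with adjusted p of 0.000104 and 0.0036 (edgeR). The block called 20.7% of all genes in WT and 22.1% in HOMO. Fos, Fosb, Jun and Junb were not called in either genotype, and their fitted sums with the block lay between -0.05 and 0.11 log2.

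Myeloid marker sums moved with population as well, with 114 to 117 CPM in HOMO CB and 138 to 164 CPM in HOMO CC, without overlap, and with 103 to 123 CPM in WT CB and 121 to 153 CPM in WT CC, which overlapped. Erythroid markers read 63.0 to 66.3 CPM in WT CB and 50.01 to 55.9 CPM in WT CC, and T cell markers 31.7 to 34.8 and 35.4 to 38.5 CPM. Both of these lists overlapped in HOMO. The dark zone markers were lower in CC in both genotypes, at 814 to 833 against 889 to 981 CPM in WT and 828 to 935 against 1054 to 1091 CPM in HOMO. In WT the B cell (1014 to 1051 against 1110 to 1138 CPM), germinal center B cell (665 to 679 against 745 to 789 CPM) and plasma cell markers (431 to 463 against 487 to 504 CPM) also lay lower in every CC library. Those 3 lists overlapped in HOMO, and light zone and natural killer cell markers overlapped in both genotypes. The part of these differences in the CC against CB results was not tested.

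Within groups, many of these peaks were highest in library 3. At 25 of the 70 peaks (35.7%) library 3, the deepest, was the highest of its 3 in all 4 groups, against 9.25% of all peaks. It was the lowest in all 4 groups at 1 peak (1.43%, against 6.75%). The median ratio of library 3 to the mean of its partners was 1.15 over the 70 peaks and 0.986 over all peaks. Fosb contributed 8 of its 13 peaks, Fos 7 of 22, Junb 3 of 4, Atf3 3 of 10, Jun 2 of 6 and Batf 2 of 8, while Batf3 had 0 of 5 and Fosl2 0 of 2. Library 3 was the deepest of every group, so its depth and whatever else its number marks cannot be told apart.

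The cluster of peaks upstream of Fosb, a Fos protein induced with Fos, shows this spread. At 9485 bp before its start HOMO CB read 24.8, 38.7 and 56.6 CPM and HOMO CC 17.6, 30.9 and 54.6 CPM. WT CB there read 43.3, 38.2 and 65.4 CPM and WT CC 32.7, 28.8 and 57.9 CPM. The libraries of 1 group thus differed by more than the group means, which ran from 34.4 ± 18.8 (SD, n = 3) in HOMO CC to 49.0 ± 14.5 CPM in WT CB. At 15917 bp before the start WT CB read 29.6, 27.4 and 37.1 CPM and WT CC 35.6, 38.2 and 48.05 CPM, with CC above CB at each number. Batf, 16900 bp into its gene, read 6.16, 11.5 and 20.8 CPM in HOMO CB and 11.4, 18.5 and 26.9 CPM in HOMO CC. WT CB there read 13.9, 11.7 and 24.2 CPM and WT CC 13.3, 14.4 and 23.6 CPM, so library 3 was the highest in all 4 groups. A fit with library size as a covariate called 12 of the 70 peaks lower in HOMO CB (17.1%, against 8.59% of all peaks), among them 3 of Batf3, 5 of Fos and 2 of Fosb.

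**Figure D5:**
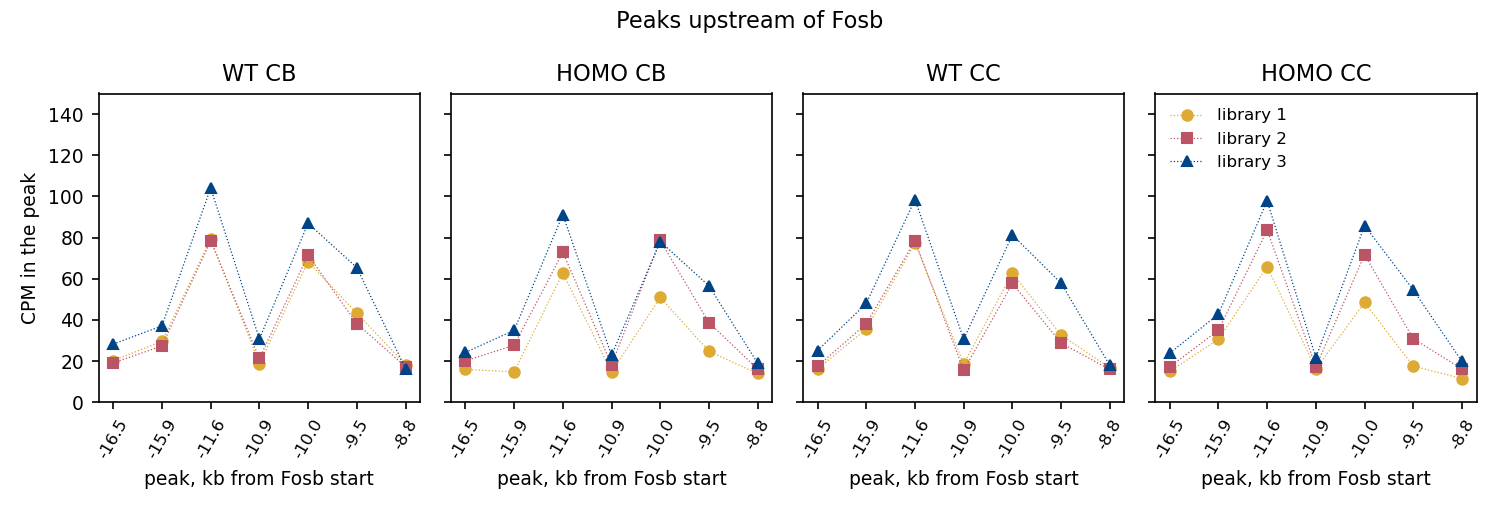
The 7 peaks upstream of Fosb in CPM, with 1 panel per group, peaks in order of position, and 1 dotted line and marker shape per library to join its points. Library 3 is the highest or close to the highest at most of these peaks in all 4 groups.

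Over the 12 libraries, the 3 genes whose highest gene-end peak followed the mean of the family's own most closely were Tbc1d24 (Pearson's r = 0.955), Ap1m1 (0.94) and Eif3d (0.94), among 10461 genes searched. These are descriptions across libraries that share depth and number.

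Genes that act with or on the family were read in the same fit, from lists of pathway members. The other AP-1, ATF, Maf and CNC zipper genes had a peak at 23 of 24 genes, 199 peaks in all. In CB 4 of these were called higher and 5 lower in HOMO, and in CC 2 and 2 (4.52% and 2.01%, against 4.63% and 2.75% of all peaks). A gene-end peak of Jdp2, the neighbour of Fos and Batf, was lower in HOMO in CB (-0.47, adjusted p = 0.0183, edgeR) and in CC (-0.60, adjusted p = 0.0101, edgeR). A peak within Bach1, a repressor that pairs with small Maf proteins, was also lower in CB (-0.93) and CC (-0.77). Bach2, its relative that restrains plasma cell differentiation, had 1 peak higher in HOMO in both (0.42 in each). Between CC and CB the list had 16 higher and 5 lower in WT and 23 and 5 in HOMO (10.6% and 14.1%, against 5.43% and 7.22% of all peaks). The called peak of smallest p in each genotype lay inside Bach2, with a log2 fold change of 1.65 in WT and 1.55 in HOMO. How many of the list's calls lie at Bach2 alone was not counted, so its share may not hold across the genes. With the block the list had 50 higher and 15 lower in WT and 46 and 21 in HOMO, of 199 peaks. Of all peaks the block called 10.4% higher and 11.8% lower in WT, and 12.5% higher and 9.68% lower in HOMO.

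The MAP kinase cascades, which phosphorylate Jun and Fos and induce their genes, had 137 peaks at 19 of 20 genes. Of these 2 were called higher and 4 lower in HOMO in CB, and 1 and 2 in CC (4.38% and 2.19%, against the 4.63% and 2.75% of all peaks). Between CC and CB 3 were higher and 0 lower in WT (13 and 13 with the block), and 9 and 1 in HOMO (18 and 11). These are 2.19% in WT and 7.3% in HOMO without the block, against the 5.43% and 7.22% of all peaks. In CC the gene-end peak of Hras, an upstream member of the ERK cascade, was lower in HOMO (-1.32), and a peak within Map3k5 was higher in CB (0.40) and CC (0.47). MAP kinase phosphatases, which switch these kinases off, had 74 peaks at 8 of 8 genes, with 0 called by genotype in CB and 1 lower in CC, at Dusp1 (-0.92, adjusted p = 0.0351, edgeR). In CB 17 of the 74 phosphatase peaks had an unadjusted p under 0.05, and the share of all peaks with such a p was not counted. DESeq2 called 0 of the 74 and limma voom 3. Of all 68689 peaks DESeq2 called 924 higher and 3266 lower in CB, and limma voom 1474 and 4927. Between CC and CB 1 was higher and 1 lower in WT (6 and 10 with the block), and 2 and 2 in HOMO (13 and 12). Of all peaks 22.1% in WT and 22.2% in HOMO were called with the block. The phosphatase shares without it were 0.0% and 1.35% by genotype in CB and CC and 2.7% and 5.41% by population in WT and HOMO, each below that of all peaks.

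SRF, which with its partners drives Fos and other immediate early genes, had a peak within the gene that was lower in HOMO in CB (-1.36, adjusted p = 0.00699, edgeR) and in CC (-1.10, adjusted p = 0.0304, edgeR). WT CB averaged 15.3 ± 1.38 CPM there, against 6.39 ± 2.59 CPM for HOMO CB (SD, n = 3 each). Its list, with ternary complex and cofactor partners, had 68 peaks at 6 of 8 listed names, some of them older names of the same gene. In CB 0 were higher and 2 lower, the other being a gene-end peak of Mrtfa, in CC 0 and 1 (2.94% and 1.47% of the list). Between CC and CB 1 was higher and 1 lower in WT and 2 and 1 in HOMO (4 and 10, and 7 and 5, with the block), or 2.94% and 4.41% without it. All 4 shares were below those of all peaks. Irf4 and Irf8, the partners of BATF proteins, had 44 peaks. A gene-end peak of Irf8 was higher in HOMO in CB (0.48, adjusted p = 0.0337) and CC (0.53, adjusted p = 0.0295, edgeR), as 1 of 44 called in each (2.27%, against 4.63% and 2.75% of all peaks). In CC against CB 1 was called higher in WT and 2 in HOMO (2.27% and 4.55%, against 5.43% and 7.22%), with 0 lower, and with the block 2 higher and 9 lower in WT and 7 and 4 in HOMO. For the SRF list and this one, the block's shares of all peaks were 10.4% higher and 11.8% lower in WT, and 12.5% and 9.68% in HOMO.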

How the data were processed

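Omni-ATAC-seq read counts from 12 libraries in 4 groups were analysed. The deposited table holds whole-number counts per peak on mm10, made by the authors, and per the submitters' processing notes BWA, FastQC, deepTools and R 4.2.1 were used. How peaks were called and counted, on single or pooled libraries, and whether duplicates were removed or the Tn5 cut position shifted, the sources used here do not give. Groups and library numbers came from the labels.

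Peaks were assigned to the nearest of the protein-coding spans of RefSeq (GRCm38.p6) within 50000 bp, which placed 63977 of 68689 peaks (93.1%). Counts were scaled with TMM. The model had a mean for each group over the 12 libraries and was fitted in edgeR 4.0.16 (R 4.3.3) with two-sided quasi-likelihood F tests, adjusted by Benjamini-Hochberg over all peaks. A peak was called at an adjusted p under 0.05. The filter filterByExpr removed 0 peaks. Counts summed per gene were fitted the same way. Totals ran from 6431354 to 45590454 reads in peaks, with a common biological coefficient of variation of 0.142. DESeq2 1.42.0, limma 3.58.1 (voom), other scaling, a filter at a mean of 2 CPM, a replicate block, library size as a covariate, a 10000 bp limit and leaving out libraries were tried as alternatives. Python 3.11.15, numpy 2.4.6, pandas 2.3.3 and matplotlib 3.10.9 handled tables and figures, and the fit was checked on simulated data.

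To see if numbers pair CB with CC, each library's deviations from its group mean were correlated. Within a genotype, CB and CC with equal numbers gave 0.21 to 0.52 in 6 pairs, and with unequal numbers -0.34 to 0.12 in 12 pairs. Equal numbers were taken as pairs from the data, while the labels do not say what a number marks.

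The members and the gene lists were chosen with earlier results of these data known. Peaks named with values are those called in any contrast and, for each gene, its highest gene-end and highest distal peak by mean CPM. Other peaks named here (further Batf3 peaks, those called with the block, and examples of the order of libraries) were chosen after their values were seen. For pathway lists up to 2 called peaks of smallest p per direction could be named, and some of these, with the genes they belong to, and 1 marker gene are not reported here. Leaving that gene out of the marker sums, after the data were seen, made the germinal center sums of HOMO CB and HOMO CC overlap, and the dark zone sums of HOMO CC and WT CC, which they did not over the whole lists. The CB value of the Jdp2 peak is given because its CC value was named.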

Additional observations from a re-analysis of the deposited data

How the results depend on the processing

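Across the alternatives no named value changed sign among those called. Called peaks kept their call in 53 alternative fits and lost it in 27, and values not called stayed so in 1821 and became called in 18. For HOMO against WT in CB, where 1 of the 70 peaks was called, DESeq2 called 2 and limma voom 4, all lower. Of all 68689 peaks DESeq2 called 924 higher and 3266 lower, and limma voom 1474 and 4927. The filter at a mean of 2 CPM called 0 (635 higher and 2175 lower of 62028 peaks). The fit without both WT libraries numbered 2 called 0 (254 and 1406 of all peaks). That without both HOMO libraries numbered 1 called 2 (919 and 3986). Library size as a covariate called 12 (11.8% of all peaks). For HOMO against WT in CC, where 0 were called, the covariate gave 1 (8.42% of all peaks). For CC against CB in WT (1 called) DESeq2 gave 2 (2783 higher and 1777 lower of all peaks) and the covariate 4 (11.4% of all peaks). The fit without both WT libraries numbered 2 gave 0 (333 higher and 194 lower of all peaks). For CC against CB in HOMO (2 called) limma voom gave 5, the covariate 10, the fit without both HOMO libraries numbered 1 gave 1 and the 10000 bp limit 1. The cause of these differences was not tested. Leaving out 1 library at a time gave 0 to 1 called peaks for HOMO against WT in CB, 0 to 2 for CC against CB in WT and 0 to 2 for CC against CB in HOMO, and 0 to 1 genes called on sums for HOMO against WT in CB.

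The replicate block raised the called peaks from 1 to 4 for HOMO against WT in CB, where it called 13.2% of all peaks, from 0 to 2 in CC (10.4% of all peaks), from 1 to 12 for CC against CB in WT and from 2 to 17 in HOMO, and as a term for the number it left the difference of effects at 0. Taken within pairs of 1 genotype and number, an alternative chosen after seeing the data, the difference of effects also gave 0 peaks and 0 sums. With the block the CB calls included 3 of Batf3 (adjusted p = 0.0136, 0.0155 and 0.0269, edgeR) and both CC calls were of Batf3 (adjusted p = 0.0395 and 0.0382, edgeR). On summed counts the block gave 1 gene for HOMO against WT in CC in place of 0 (Batf3, adjusted p = 0.0249, edgeR; 16.5% of all gene sums were called), 2 for CC against CB in WT in place of 0 and 4 in HOMO in place of 0, and left 1 for HOMO against WT in CB. WT and HOMO libraries of the same number within a population correlated at -0.01 to 0.40 (6 pairs). Those of different number correlated at -0.30 to 0.18 (12 pairs). Library 3 was also the deepest of every group, and what else equal numbers share across genotypes was not tested. With 3 libraries a group and a median standard error of 0.20 on the log2 scale for the genotype effects, small changes could not be called.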
